A study of Mus musculus with 21 samples.

Results

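The Ifit and Ifi genes described here are 9 interferon-induced genes, Ifit1, Ifit2, Ifit3, Ifit3b, Ifi44, Ifi44l, Ifi27, Ifi27l2a and Ifi35, matched by gene symbol in 2 tables of mouse RNA levels. All 9 of them were found among the 31553 features of the Neuro2a table, and 8 among the 39008 features of the table of cortical nuclei, where Ifi44l was not analysed here. These genes were picked after their levels in the Neuro2a cultures had been seen, so every Neuro2a difference of theirs is given as a description and carries no test. The comparisons between mice were not used to pick them and were tested.

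RNA was read by polyA sequencing in 21 samples. Neuro2a is a mouse neuroblastoma line that stems from sympathetic nerve tissue. In 6 samples, called CRISPRa, the cells received 750 ng of a guide RNA plasmid and 750 ng of a plasmid for sadCas9-VP64, a catalytically dead Cas9 joined to the transcriptional activator VP64. Another 6 samples, called VP64 only, received the sadCas9-VP64 plasmid without a guide RNA, so that both groups carried the activator. The amount of that plasmid is not listed for VP64 only, so the total amount of plasmid may differ between the groups. The library names place replicates 1 to 3 of both groups in a set numbered 7 and replicates 4 to 6 in a set numbered 8, and what the sets stand for is not given in the labels. The mouse groups, on a C57BL/6J background, were 3 wild-type samples (WT), 3 of genotype Scn2a+/- (Het), and another 3 of that genotype given 500 nL of rAAV with sadCas9-VP64 and an Scn2a guide RNA in the medial prefrontal cortex 4 weeks earlier (Het CRISPRa). Ages are not given in the labels, and neither is whether WT and Het mice received an injection. RNA of the mice came from NeuN-sorted nuclei out of 200 mg of cortex, which is more tissue than the injected area, and the share of nuclei that took up the virus is not given.

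Interferons are secreted signals that cells release when they sense foreign or misplaced nucleic acid. The type I interferon receptor, made of Ifnar1 and Ifnar2, acts through the kinases Jak1 and Tyk2 to activate a complex of transcription factors that holds Stat2 and Irf9 and binds a DNA element called the interferon-stimulated response element (ISRE) in front of target genes. The Ifit proteins are among the most inducible of these targets and bind foreign RNA with unusual ends or hold back its translation, and the Ifi names cover several unrelated proteins that were first found as interferon-induced. Neurons are known to respond to interferon, though microglia and vascular cells of the brain often respond more.

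Depth was 15.5 to 21.0 M reads (M, 1e+06) per Neuro2a library and 15.5 to 20.1 M per mouse library, read from the value of a single read. Levels are counts per M reads (CPM) with the SD between libraries, and 3 reads, the floor used for a listed 0, correspond to 0.143 to 0.193 CPM. Differences were taken between means of log2(CPM + 0.5), with the SE from limma, and this scale makes differences at low CPM look smaller than they are. Scn2a rose in Neuro2a from 2.84 to 3.46 CPM across VP64-only libraries to 4.09 to 5.34 CPM across CRISPRa libraries (0.50 ± 0.10, limma adjusted p = 0.0053), and it passed no test among the mouse groups (limma adjusted p of 0.875, 0.810 and 1). There its mean was 250 CPM in WT, 230 CPM in Het and 271 CPM in Het CRISPRa. Het minus WT, Het CRISPRa minus Het and Het CRISPRa minus WT gave -0.13, 0.25 and 0.12 (SE 0.11 each, limma unadjusted p of 0.248, 0.0385 and 0.291). All 7 markers of sympathetic neuroblastoma were present in Neuro2a, with summed levels of 662 to 923 CPM. In nuclei the 6 neuronal markers summed to 2435 to 2718 CPM, against 10.49 to 23.5 CPM for 7 microglial and 2.86 to 6.54 CPM for 6 vascular markers. There 4 oligodendrocyte markers summed to 88.3 to 108 CPM and 4 astrocyte markers to 6.02 to 15.1 CPM. The labels number the samples of a group as replicates without saying whether each came from its own culture or animal, so p-values reflect the spread among these samples alone, and that spread may be technical.

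Of the 9 genes, 7 had an entry in the RefSeq promoter table of build GRCm38.p6, which holds windows of 300 bases from 250 before to 50 after a transcript start. Because Ifit2 has 2 starts, 8 windows were searched on both strands for the ISRE core, spelled GAAANNGAAA or in reverse TTTCNNTTTC. The windows of Ifit1, Ifit3 and Ifit3b held it, each at 2 places. They are printed because they are the member windows with this core. All 7 genes with an entry were higher in the CRISPRa cultures, with or without the core. Ifi27, which was lower there, had no entry, so a link between the core and the direction of the difference was not tested. All bases are in lower case except the ISRE cores, which are in capitals.
Ifit1 promoter, chr19:34640639-34640938, plus strand: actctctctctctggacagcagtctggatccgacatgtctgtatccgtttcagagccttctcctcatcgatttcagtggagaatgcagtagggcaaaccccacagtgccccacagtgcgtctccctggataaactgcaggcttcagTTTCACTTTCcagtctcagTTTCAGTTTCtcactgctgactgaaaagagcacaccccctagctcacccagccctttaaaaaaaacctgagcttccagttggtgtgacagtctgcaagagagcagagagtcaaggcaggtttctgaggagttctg
Ifit3 promoter, chr19:34583279-34583578, plus strand: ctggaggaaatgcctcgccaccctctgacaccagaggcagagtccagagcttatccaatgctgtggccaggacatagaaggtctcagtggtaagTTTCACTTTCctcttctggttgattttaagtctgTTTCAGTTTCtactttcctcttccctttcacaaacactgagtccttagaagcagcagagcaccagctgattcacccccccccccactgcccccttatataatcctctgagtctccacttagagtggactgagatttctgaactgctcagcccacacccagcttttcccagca
Ifit3b promoter, chr19:34607707-34608006, plus strand: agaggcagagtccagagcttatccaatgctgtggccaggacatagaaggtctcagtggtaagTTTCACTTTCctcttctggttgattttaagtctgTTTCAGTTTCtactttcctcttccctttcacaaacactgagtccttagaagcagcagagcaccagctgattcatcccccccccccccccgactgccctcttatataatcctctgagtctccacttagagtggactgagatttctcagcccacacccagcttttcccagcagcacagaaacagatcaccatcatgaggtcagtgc
The core was found in 3.44% of the 32851 windows of all genes, and 0.225% of them held it at 2 or more places. In Ifit1 the stretch TTTCACTTTC starts 104 bases before the transcript start and TTTCAGTTTC starts 85 bases before it. In Ifit3 the same stretches start 156 and 122 bases before, and in Ifit3b 188 and 154 bases before. The Ifit3 and Ifit3b windows were 99.6% identical over 260 aligned bases. The windows of Ifit2, Ifi35, Ifi44 and Ifi44l did not hold these letters. A match of letters is not evidence of binding, and no binding was measured.

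Levels of 8 of the 9 genes were higher in CRISPRa than in VP64-only cultures within each library set, and Ifi27 was lower within each. The median difference of the 9 genes was 1.33 on the log2 scale with both sets together, beside 0.06 over the 14398 genes tested. For 6 genes the lowest CRISPRa library exceeded the highest VP64-only library, which held for 5.74% of all genes tested, and 3.01% of all genes lay wholly below. The other 3, Ifit3b, Ifi27l2a and Ifi27, overlapped only when the sets were joined. Within set 7, 8 of the 9 genes lay wholly above and 1 wholly below, beside 34.6% and 19.6% of all genes, and within set 8 the counts were again 8 and 1, beside 21.9% and 16.5%. As the genes were picked from these cultures, nothing is read from these counts.

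**Figure D1:**
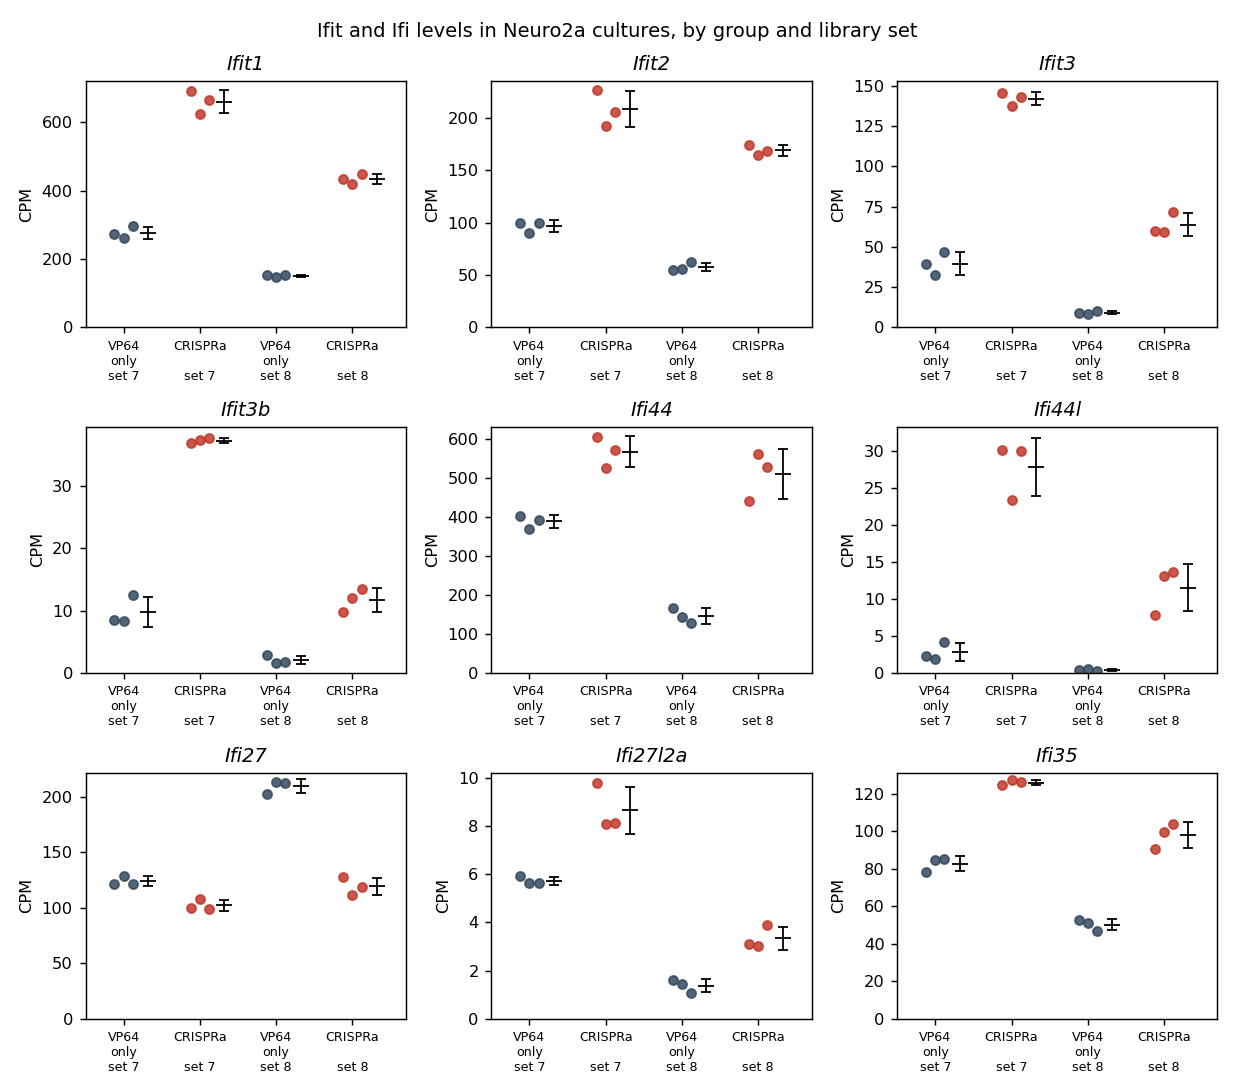
Level of each gene (CPM, axes from 0) in the 12 Neuro2a libraries, in dark grey for VP64 only and red for CRISPRa, by library set, with the mean and SD of 3 libraries in black. In 8 panels the red points lie above the grey points of the same set, and in the Ifi27 panel they lie below.

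Ifit1 binds RNA that lacks the methyl mark of host mRNA caps. Its level was 273, 260 and 295 CPM in the VP64-only libraries of set 7 and 691, 624 and 664 CPM in the CRISPRa libraries. In set 8 it was 153, 147 and 151 CPM in VP64 only against 433, 419 and 448 CPM in CRISPRa. CRISPRa libraries were thus 2.39-fold higher in set 7 and 2.87-fold higher in set 8, and the lowest of them in set 8 was still above the highest VP64-only library of set 7. Over both sets the log2 difference was 1.39 ± 0.21 (SE).

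Ifit2, which binds AU-rich RNA and pairs with the other Ifit proteins, was at 99.9, 90.1 and 99.6 CPM in VP64 only and at 227, 193 and 206 CPM in CRISPRa of set 7. In set 8 the values were 55.0, 55.8 and 61.9 CPM against 175, 164 and 169 CPM. The groups were separate in both sets and across them, with a log2 difference of 1.33 ± 0.16, or 1.11 in set 7 and 1.55 in set 8.

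Ifit3, a partner that stabilises Ifit1 binding to RNA, is encoded in the same cluster as the other Ifit genes on chromosome 19. It was at 39.4, 32.4 and 46.6 CPM in VP64 only against 145, 137 and 143 CPM in CRISPRa of set 7. Set 8 libraries held 8.70, 8.19 and 10.0 CPM against 60.0, 59.1 and 71.8 CPM. The ratio of means was 3.60 in set 7 and 7.09 in set 8, with a log2 difference over both sets of 2.30 ± 0.46, and CRISPRa libraries of set 8 lay above VP64-only libraries of set 7.

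Ifit3b is a near copy of Ifit3 in that cluster. In set 7 it was at 8.42, 8.29 and 12.5 CPM in VP64 only and 36.9, 37.5 and 37.7 CPM in CRISPRa. Set 8 gave 2.80, 1.60 and 1.77 CPM against 9.73, 12.0 and 13.5 CPM. Here the set 8 CRISPRa libraries overlapped the set 7 VP64-only libraries, although the ratio was 3.84 in set 7 and 5.71 in set 8. The longest coding transcripts of Ifit3 and Ifit3b, from GENCODE M21, were identical at 1663 of 1697 aligned bases, and 51.2% of the 50-base stretches of Ifit3 and 44.5% of those of Ifit3b occur in the other gene. In none of the 12 Neuro2a libraries was the level of Ifit1, Ifit3 or Ifit3b a whole number of reads within 0.01, whereas those of Ifit2, Ifi44, Ifi44l, Ifi27 and Ifi27l2a were in all 12. How the counting divided reads that fit both copies is not given in the sources used here, so the levels of Ifit3 and Ifit3b are uncertain one by one. Their sum, added after the values were seen, was 49.2 ± 9.3 CPM in VP64 only and 179 ± 4.0 CPM in CRISPRa of set 7 (SD, n = 3 each). The set 8 sums were 11.04 ± 1.09 against 75.4 ± 8.6 CPM, so the pooled pair was 3.65-fold and 6.83-fold higher. Ifit3 made up 75.7 to 86.0% of the sum across the 12 libraries. Ifit1 shares 7.13% of its 50-base stretches with Ifit1bl1 and Ifit1bl2.

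Ifi44, a cytoplasmic protein with a GTPase-like region, lies beside Ifi44l on chromosome 3. It was at 403, 370 and 394 CPM in VP64 only and 606, 527 and 573 CPM in CRISPRa of set 7, a ratio of 1.46. In set 8 it was at 167, 145 and 128 CPM in VP64 only and 441, 563 and 529 CPM in CRISPRa, a ratio of 3.49. The CRISPRa libraries of the 2 sets overlapped, while the VP64-only libraries of set 8 were all below those of set 7. The log2 difference was 1.17 ± 0.28 over both sets, 0.55 in set 7 alone and 1.80 in set 8 alone.

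Ifi44l, the paralogue of Ifi44, had the largest difference of the 9 genes. It was at 2.31, 1.93 and 4.18 CPM in VP64 only and 30.2, 23.3 and 30.0 CPM in CRISPRa of set 7. In set 8 it was at 0.33, 0.48 and 0.25 CPM, or 7, 8 and 4 reads, in VP64 only and at 7.87, 13.1 and 13.6 CPM, or 125, 203 and 213 reads, in CRISPRa. The ratio of 9.91 in set 7 and 32.5 in set 8 therefore rests on few reads in the set 8 controls. The log2 difference was 3.47 ± 0.47, and no library of one group reached the range of the other.

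Ifi35, a leucine zipper protein that binds Nmi, was at 78.4, 84.9 and 85.1 CPM in VP64 only and at 124, 127 and 126 CPM in CRISPRa of set 7. In set 8 the levels were 52.6, 51.2 and 47.0 CPM against 90.3, 99.4 and 104 CPM. The groups were separate in and across the sets, with ratios of 1.52 and 1.95 and a log2 difference of 0.78 ± 0.16. In GENCODE M21, 290 exonic bases of Ifi35 (16.8%) overlap Gm11626 on the opposite strand, and reads of both genes cannot be told apart where counting ignores strand, which is not stated.

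Ifi27l2a, of the family of small hydrophobic membrane proteins to which Ifi27 belongs, was at 5.93, 5.63 and 5.63 CPM in VP64 only and at 9.79, 8.09 and 8.11 CPM in CRISPRa of set 7. The set 8 values were 1.62, 1.43 and 1.07 CPM against 3.08, 3.03 and 3.90 CPM. The CRISPRa libraries of set 8 fell below the VP64-only libraries of set 7, so the difference over both sets (0.79 ± 0.43) had a wide error, with 0.55 in set 7 and 1.04 in set 8.

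Ifi27, which lies next to Ifi27l2a on chromosome 12, was the 1 gene in the opposite direction. It was at 122, 129 and 121 CPM in VP64 only and at 99.5, 108 and 99.1 CPM in CRISPRa of set 7. In set 8 the levels were 203, 214 and 213 CPM against 128, 112 and 119 CPM. All CRISPRa libraries were below the VP64-only libraries of the same set, at 0.823 of their mean in set 7 and 0.568 in set 8, and the log2 difference was -0.55 ± 0.16. Across sets, the CRISPRa libraries of set 8 overlapped the VP64-only libraries of set 7.

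The library sets differed as much as the treatments for several genes. In VP64-only cultures, set 8 minus set 7 was between -2.07 (Ifit3) and -0.72 (Ifi35) on the log2 scale for 8 genes and 0.76 for Ifi27. In CRISPRa cultures it was between -1.64 (Ifit3b) and -0.16 (Ifi44) for 8 genes and 0.22 for Ifi27. The medians over the 9 genes were -1.41 and -0.61, beside -0.03 and -0.08 over all genes. Put in order by mean level, 7 genes had the same sequence of VP64 only in set 8, VP64 only in set 7, CRISPRa in set 8 and CRISPRa in set 7. Along this order the middle neighbours overlapped for Ifit3b and the top neighbours for Ifi44. Ifi27 had exactly the reverse order, with overlap in the middle. Ifi27l2a differed in that VP64 only of set 7 lay above CRISPRa of set 8.

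The CRISPRa difference was larger in set 8 than in set 7 in size for all 9 genes, Ifi27 included. For Ifi44 the difference between the sets was 1.25 ± 0.12 (SE), the widest of the 9, and for Ifit3 it was 0.91 ± 0.14. The other positive values ran from 0.26 ± 0.07 for Ifit1 to 0.64 ± 0.32 for Ifi44l, and Ifi27 gave -0.53 ± 0.07. The error was wide beside the value for Ifi44l, for Ifit3b (0.37 ± 0.24) and for Ifi27l2a (0.48 ± 0.23). The median over the genes was 0.44, beside -0.05 over all genes. For 8 genes the set with the larger difference was also the one with the lower VP64-only level.

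**Figure D2:**
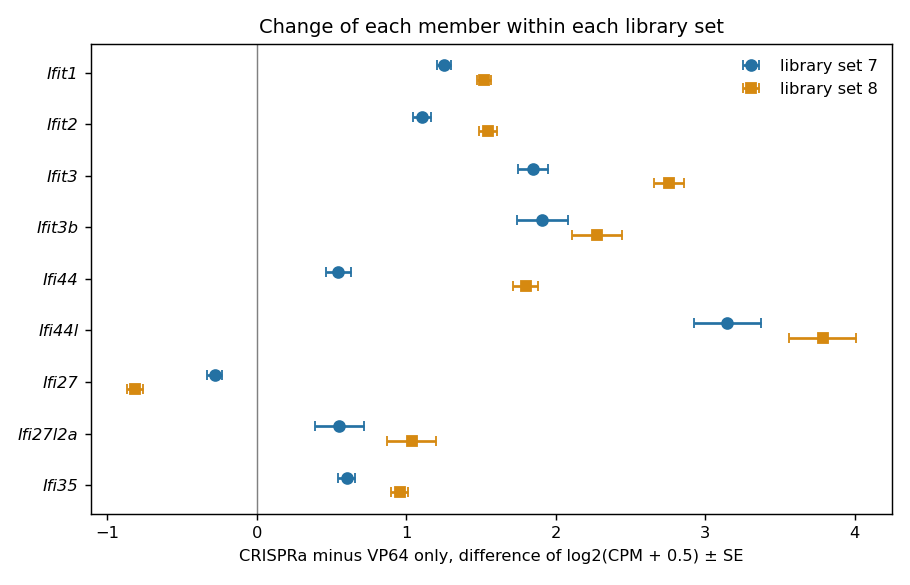
Difference of CRISPRa and VP64 only in log2(CPM + 0.5) for each of the 9 genes in library set 7 (circles) and set 8 (squares), with the SE of the fit. Every square lies farther from 0 than the circle of the same gene, and Ifi27 is the single gene left of 0.

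The transgenes differed between the library sets too. In set 7 sadCas9-VP64 RNA measured 1977 ± 256 CPM with the guide plasmid against 2550 ± 84 CPM without it, and in set 8 it measured 600 ± 34 against 349 ± 27 CPM (SD, n = 3 each). A transcript named McherryPuro measured 5296 ± 600 CPM in the CRISPRa libraries of set 7 and 1727 ± 181 CPM in those of set 8, and it was listed at 0 without the guide plasmid. Both transgenes and 8 of the 9 genes were thus higher in set 7 than in set 8 within each group in which the transgene was present, whereas between the groups sadCas9-VP64 was lower in CRISPRa in set 7 and higher in set 8. Their part in the levels of the Ifit and Ifi genes was not tested. The guide RNA plasmid and its effect cannot be told apart from what else the plasmid carries, since none of the cultures analysed here received that plasmid with a guide to another gene. Nor can a difference in total plasmid amount be told apart from it, as the amount is not listed for VP64 only. Of 7 microglial markers 5 were listed in Neuro2a, with summed levels of 2.01 to 3.695 CPM in CRISPRa and 1.85 to 3.56 CPM in VP64 only. Most of it came from Tmem119, at 0.84 to 2.36 CPM, and Csf1r, at 0 to 1.26 CPM. Aif1 was at 0 to 0.32 CPM, and P2ry12 and Cx3cr1 were each at 0 in 11 of the 12 libraries. The vascular markers summed to 92.6 to 148 CPM in CRISPRa and 125 to 155 CPM in VP64 only, most of it from Pdgfrb.

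Other genes of the interferon pathway, listed by role from textbook knowledge, were tested in the same Neuro2a comparison. The lists are not independent of earlier results on these cultures. By limma 38 of 58 tested pathway genes rose and 0 fell at an adjusted p under 0.05, beside 10.0% of all genes that rose and 5.02% that fell, or 1443 and 723 of 14398. With the replicate number as a block 43 pathway genes rose, 1 fell and the counts over all genes were 2865 and 1648, and with median-of-ratios scaling they were 1062 and 1104. Of the 20 pathway genes that did not pass, 6 had an unadjusted p under 0.05.

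Among relatives of the 9 genes, 3 of 10 tested rose and 0 fell, with a median of 0.31. Ifi47, an interferon-induced GTPase, went from 1.88 ± 1.81 to 18.2 ± 13.6 CPM (SD, n = 6 each; log2 change 2.999 ± 0.65, limma adjusted p = 0.00781). Ifi203, a nuclear protein of the family that binds DNA, rose by 1.75 ± 0.37 (limma adjusted p = 0.00704) from a level of 0 to 0.30 CPM, at or under the floor in most VP64-only libraries, to 0.50 to 3.94 CPM. Its change was 2.485 ± 0.24 in set 7 and 1.009 ± 0.24 in set 8. It met the filter of 0.5 CPM in 6 libraries through the CRISPRa libraries alone, and only 14 of the 20 alternatives held it. The call of Ifi203 is therefore not independent of the filter, and nothing is read from it. The 3 rises here and the 38 over all lists include this gene. Ifit1bl2, which lies between Ifit3b and Ifit1 on chromosome 19, rose from 7.13 ± 2.46 to 21.0 ± 5.4 CPM (1.52 ± 0.22, limma adjusted p = 0.000838). Since 9.34% of its 50-base stretches occur in Ifit1 or Ifit1bl1, and its level was a whole number of reads in 0 of the 12 libraries, reads of the far more abundant Ifit1 may be part of this level, and the rise of Ifit1bl2 is uncertain. Ifit1bl1, between Ifit3 and Ifit3b, did not pass (0.11 ± 0.25, limma adjusted p = 0.797).

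Signalling genes gave 8 rises and 0 falls among 16 tested. Socs1, an inhibitor of the Jak kinases, rose by 1.06 ± 0.17 (limma adjusted p = 0.00135), and Irf7, a transcription factor that turns on interferon genes, by 1.05 ± 0.29 (limma adjusted p = 0.0257). The call of Irf7 was lost when any 1 of the CRISPRa replicates 1 to 3 or the VP64-only replicates 4 to 6 was left out, and without the filter on low values (limma adjusted p of 0.0515 to 0.0577). The receptor and kinase genes Ifnar1, Ifnar2, Ifngr1, Ifngr2, Il10rb, Jak1, Jak2 and Tyk2 did not pass, with values between -0.12 and 0.07. Ifnb1, which encodes interferon beta, was listed at 0 in all VP64-only libraries and reached at most 0.12 CPM in CRISPRa libraries, under the floor.

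Nucleic acid sensors gave 5 rises and 0 falls among 9 tested. Zbp1, which binds Z-form nucleic acid, had a log2 change of 3.64 ± 0.64 (limma adjusted p = 0.0026). Dhx58 (1.14 ± 0.20, limma adjusted p = 0.00281) and Ifih1 (1.02 ± 0.16, limma adjusted p = 0.0015) encode the RNA sensors LGP2 and MDA5. Cgas, Eif2ak2, Sting1 and Mavs gave 0.28, 0.24, 0.22 and 0.05 and did not pass, although Eif2ak2 did with the replicate block (limma adjusted p = 0.00635). For Sting1, the adaptor downstream of Cgas, the value over both sets joins opposite directions. It was at 20.3 to 22.8 CPM in VP64 only and 32.02 to 33.9 CPM in CRISPRa of set 7, and at 40.9 to 46.4 CPM against 35.4 to 40.5 CPM in set 8, with no overlap within either set. The change was 0.62 ± 0.07 in set 7 and -0.18 ± 0.07 in set 8, and the difference between the sets was -0.80 ± 0.10 (limma adjusted p = 1.70e-05). Cgas, which senses DNA, changed by 0.54 ± 0.11 in set 7 and 0.03 ± 0.11 in set 8, a difference of -0.51 ± 0.15 (limma adjusted p = 0.0220). Sting1 and Cgas are named here after their values were seen, and other pathway genes also differed between the sets. Irf7 gave 1.15 ± 0.08 (limma adjusted p = 4.24e-09), Oas2 1.44 ± 0.10 (limma adjusted p = 1.94e-08) and Socs1 -0.93 ± 0.21 (limma adjusted p = 0.0039). No share over all genes is given here for this difference. Of the 58 pathway genes, 8 had opposite signs in the sets, none of them among the 38 that rose. Since the call joins both sets, opposite signs make a call unlikely, and nothing is read from this count.

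Of 23 other antiviral effectors tested, 22 rose and 0 fell, with a median of 0.79. Oas3, which makes a nucleotide second messenger when it binds double-stranded RNA, rose by 2.34 ± 0.37 (limma adjusted p = 0.00144), Samd9l, which restricts poxviruses, from 33.4 ± 19.5 to 134 ± 45 CPM (2.15 ± 0.37, limma adjusted p = 0.00232), and Mx1, a dynamin-like GTPase that traps viral nucleoproteins, by 2.04 ± 0.46 (limma adjusted p = 0.0101). Parp9 was the single effector that did not pass (0.49 ± 0.18, limma adjusted p = 0.0831), and it did with the replicate block (0.49 ± 0.04, limma adjusted p = 2.59e-05).

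**Figure D3:**
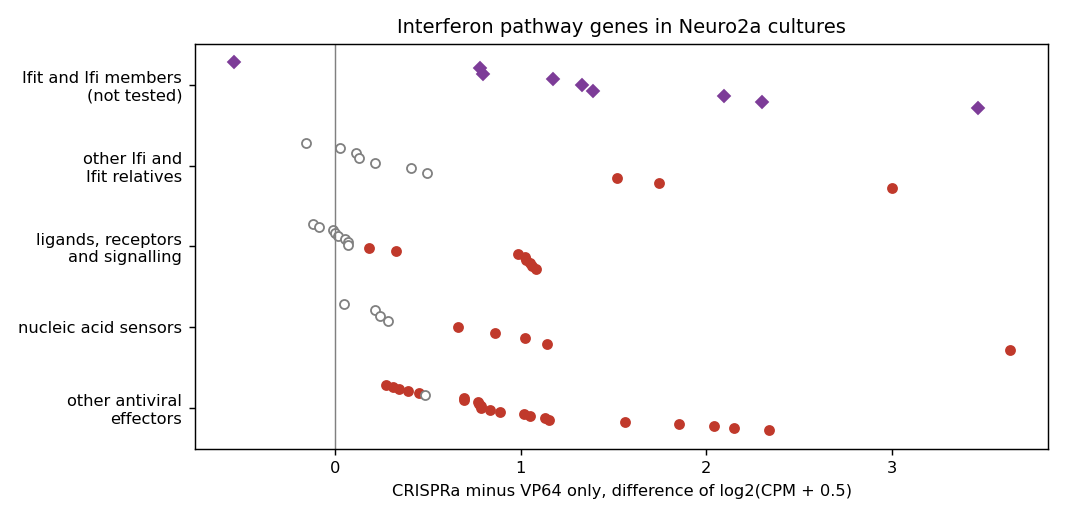
Difference of CRISPRa and VP64 only in log2(CPM + 0.5) over both library sets. Diamonds are the 9 Ifit and Ifi genes, which were not tested, filled circles are pathway genes past an adjusted p of 0.05 and open circles are those that did not pass. Of the 58 circles 38 are filled, all right of 0.

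The genes whose pattern over the 12 Neuro2a libraries was most like that of a member were named by Pearson r on log2(CPM + 0.5). The libraries share 2 sets and 2 groups, so any gene that differs between sets and groups in the same way gives a high r. For Ifit1 they were Rsad2, Oasl1 and Irgm1, with r of 0.998, 0.996 and 0.995. For Ifi35 they were Mx1, Zbp1 and Parp12, with r of 0.994, 0.994 and 0.992. Ifi27l2a was most like Tor1aip1, Ano6 and Necap2, with r of 0.990, 0.985 and 0.978. Ifi27 was most like Ankrd37, Hk2 and Eno1, with r of 0.988, 0.980 and 0.979. Hk2, a hexokinase, was at 90.9 ± 4.3 CPM in VP64 only and 71.2 ± 1.2 CPM in CRISPRa of set 7, and at 159 ± 5.5 against 92.1 ± 3.1 CPM in set 8 (SD, n = 3 each). Like Ifi27 it was lowest in CRISPRa of set 7 and highest in VP64 only of set 8, with the other 2 groups close together between them.

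Genes directly beside the Ifit and Ifi genes in the RefSeq annotation were tested as well. Lipa, beside Ifit2, did not pass (-0.05 ± 0.07, limma adjusted p = 0.710) but did in 1 of 20 alternatives. Slc16a12, beside Ifit1, was just past the threshold as a fall (-0.25 ± 0.08, limma adjusted p = 0.0497), a call lost in 11 of 20 alternatives. Rpl27 and Vat1 on either side of Ifi35 gave -0.11 and 0.21 and did not pass, though Rpl27 did in 2 and Vat1 in 4 of 20 alternatives. Ddx24, beside Ifi27l2a, rose by 0.43 ± 0.13 (limma adjusted p = 0.0426), a call lost in 8 of 20 alternatives. Adgrl4, Ptgfr and Ifi27l2b, the other neighbours, were not tested.

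In NeuN-sorted nuclei of mouse cortex, no Ifit or Ifi gene passed the test in any of the 3 comparisons. Of the 8 genes listed there, 6 passed the filter on low values. Het minus WT had 0 of 6 past the threshold (limma, lowest adjusted p = 0.875), beside 0% of 18967 genes. Het CRISPRa minus Het had 0 of 6 (limma, lowest adjusted p = 0.810), beside 0.0422% of all genes, and Het CRISPRa minus WT had 0 of 6 (limma, all adjusted p of 1), beside 0.00527%. At an unadjusted p under 0.05 the counts were 0, 0 and 1 of the 6, and 951, 996 and 335 of all genes. In the authors' deposited tables none of these genes had a p under 0.05 in a mouse comparison. The 2 comparisons with Het CRISPRa share those libraries. In sorted nuclei, fewer responding cells and less RNA per cell cannot be told apart.

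**Figure D4:**
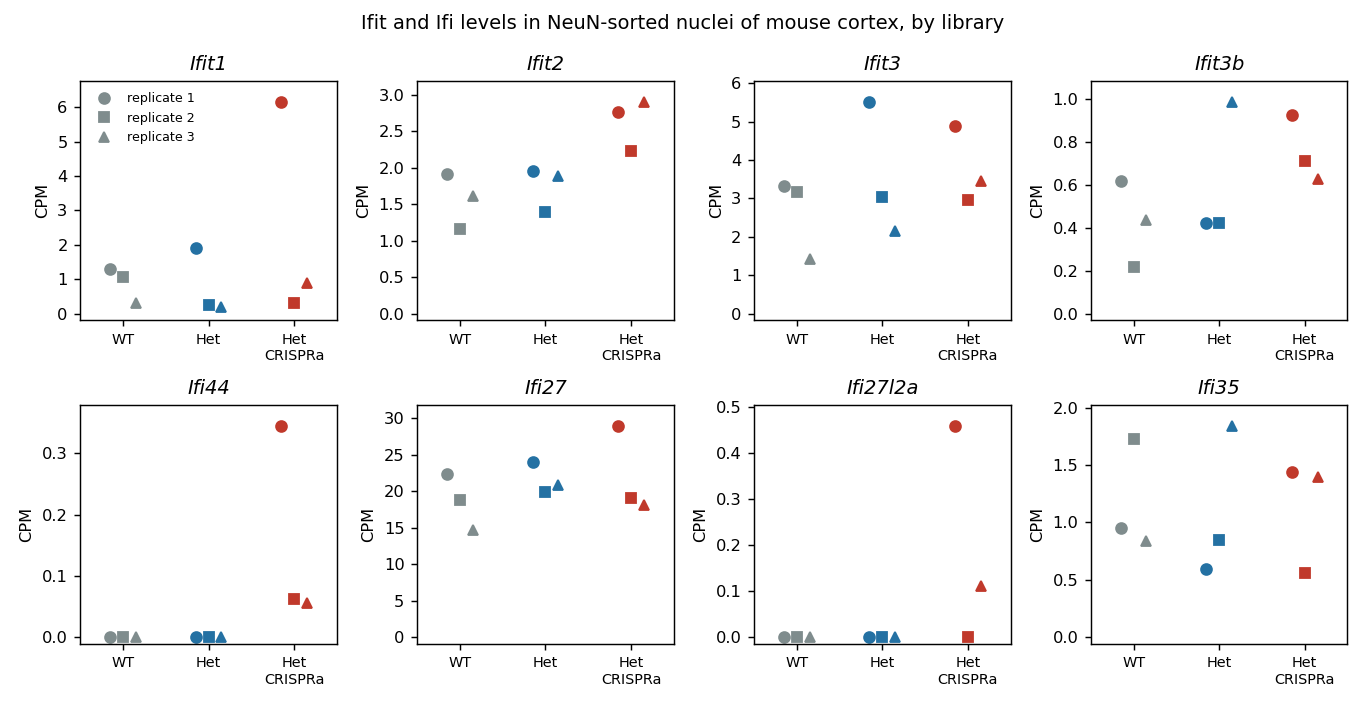
Level (CPM, axes starting just below 0) of the 8 genes listed in nuclei, in the 9 mouse libraries, by group, with 1 symbol per replicate number. The groups overlap for most genes, and replicate 1 of Het CRISPRa stands above the other 8 libraries for Ifit1 (6.15 CPM), Ifi44, Ifi27 and Ifi27l2a.

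Ifit1 was at 1.31, 1.06 and 0.32 CPM in WT, at 1.90, 0.24 and 0.20 CPM in Het and at 6.15, 0.31 and 0.89 CPM in Het CRISPRa. The highest value, 107 reads, came from replicate 1 of Het CRISPRa, and the other libraries of that group lay within the range of WT and Het. The log2 difference of Het CRISPRa and Het was 0.86 ± 0.69 (SE, limma adjusted p = 0.810), and without that library it was -0.02. Against WT it was 0.56 ± 0.69 with that library and -0.32 without it.

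Ifit2 was at 1.91, 1.17 and 1.61 CPM in WT, at 1.96, 1.39 and 1.89 CPM in Het and at 2.76, 2.23 and 2.90 CPM in Het CRISPRa, or 23 to 52 reads. All 3 Het CRISPRa libraries lay above all WT and all Het libraries. Separation of this kind was found for 5.37% of genes against Het and 2.68% against WT. The log2 difference was 0.48 ± 0.25 against Het (limma adjusted p = 0.810) and 0.61 ± 0.25 against WT (limma adjusted p = 1), the latter being the 1 member with an unadjusted p under 0.05. Leaving out 1 library at a time it ran from 0.36 to 0.58 against Het and from 0.47 to 0.73 against WT, and none of these passed.

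Ifit3 was at 3.32, 3.18 and 1.43 CPM in WT, 5.50, 3.03 and 2.15 CPM in Het and 4.88, 2.94 and 3.44 CPM in Het CRISPRa. Ifit3b was at 0.62, 0.22 and 0.44 CPM, 0.43, 0.42 and 0.99 CPM, and 0.93, 0.71 and 0.63 CPM in the same order. Het and Het CRISPRa overlapped for both genes, and all Het CRISPRa libraries were above those of WT for Ifit3b. There the lowest Het CRISPRa library held 11.3 reads and the highest WT library 10.4, and such separation held for 2.68% of all genes. The sum of the pair overlapped, with 3.66 CPM in replicate 2 of Het CRISPRa and 3.94 CPM in replicate 1 of WT. The sum of the pair was 3.07 ± 1.07 CPM in WT, 4.17 ± 1.53 in Het and 4.51 ± 1.14 in Het CRISPRa (SD, n = 3 each).

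Ifi27 was at 22.4, 18.7 and 14.7 CPM in WT, at 24.0, 19.9 and 20.9 CPM in Het and at 29.0, 19.0 and 18.1 CPM in Het CRISPRa. The groups overlapped, with a log2 difference of 0.00 ± 0.20 between Het CRISPRa and Het.

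Ifi35 was at 0.95, 1.72 and 0.84 CPM in WT, 0.59, 0.85 and 1.84 CPM in Het and 1.44, 0.56 and 1.39 CPM in Het CRISPRa, with full overlap. Ifi44 was listed at 0 in all WT and Het libraries and at 0.34, 0.06 and 0.06 CPM in Het CRISPRa, which is 6, 1 and 1 reads. Ifi27l2a was likewise listed at 0 in WT and Het and had 8, 0 and 2 reads in Het CRISPRa. The group means of Ifi44 and Ifi27l2a were near the floor of 3 reads in each library, so no fold is given and neither gene was tested.

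The other pathway genes gave the same count in nuclei. Of 46 tested, 0 passed in Het minus WT, in Het CRISPRa minus Het and in Het CRISPRa minus WT, and 0, 2 and 2 had an unadjusted p under 0.05 by limma. Over all 18967 genes tested, 951, 996 and 335 had such a p. The 2 of the last comparison were Oas1b (1.17 ± 0.53) and Socs1 (0.79 ± 0.29). The 2 against Het were Oas1b (1.18 ± 0.53) and Rigi (0.90 ± 0.32), an RNA sensor, and these genes are named after their values were seen. Transcripts of the vector were low in Het CRISPRa nuclei, at 7.12, 4.09 and 4.40 CPM for sadCas9-VP64, and were listed at 0 in WT and Het.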

How the data were processed

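The authors deposited 1 table of CPM for the 12 Neuro2a libraries and 1 for the 9 mouse libraries, and each library sums to 1000000. The submitters' processing notes list the builds mm39 and GRCm39, featureCounts, R 4.4, DESeq2 1.44 and STAR 2.7.8a, without saying which step used which. The authors' deposited comparison tables give a log2 fold change and a p-value per gene. Groups follow the labels (title, genotype, treatment). Only 70.8 to 73.2% of Neuro2a and 79.9 to 82.4% of mouse values above 0 were within 0.01 of whole reads, so count tests were not run.

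R 4.3.3 and limma 3.58.1 (lmFit, then eBayes with a trend) were run on log2(CPM + 0.5), for genes at 0.5 CPM or more in 6 Neuro2a or 3 mouse libraries, without the transgenes. P-values were adjusted by Benjamini-Hochberg, with 0.05 as the threshold. All mouse libraries were fitted together. The code was tested on simulated data. The 9 genes and the pathway lists were chosen with earlier results of these data known. Named were all 9 genes, the 3 largest changes past the threshold in each list, any such gene against its list, the 3 genes with the highest r for Ifit1, Ifi27, Ifi27l2a and Ifi35, and direct neighbours. Some pathway and marker genes are not reported here; the pathway counts include them and the marker sums do not. Same-numbered Neuro2a libraries deviated together (r of 0.305 to 0.499). They also lie in the same library set, and pairing within a set was not tested apart from the set. The results reported carry no block, and the fit with the replicate number as a block is given beside those it changes. In no mouse comparison did all same-numbered pairs deviate together (0.34, 0.03 and 0.42 for Het and WT, -0.11 to 0.11 for those with Het CRISPRa). Python 3.11.15, pandas 2.3.3, numpy 2.4.6, matplotlib 3.10.9 and Biopython 1.88 were used for levels, figures and sequences.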

Additional observations from a re-analysis of the deposited data

How the results depend on the processing

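The median difference of the 9 genes in Neuro2a ran from 1.11 to 1.55 over 20 alternatives (1.24 to 1.41 leaving out 1 library at a time), and each of the 9 genes kept its sign in all 20. The replicate block, the library set as a covariate and the fit without the filter cannot move these differences. As the genes were picked from these same cultures, nothing is read from the kept signs. Ifi44 moved most, from 0.55 with set 7 alone to 1.80 with set 8 alone. The count of pathway genes that rose, 38, ran from 30 to 45 (30 to 40 leaving out 1 library at a time). No pathway gene fell as reported, whereas 2 fell with median-of-ratios scaling (Ifitm2 and Ifnar2), 1 fell with the replicate block (same-numbered libraries as pairs), 1 when the library set was a covariate and 1 with set 8 alone, each time Ifitm2. Leaving out 1 library at a time gave 0 to 1, the 1 being Ifitm2 without VP64-only replicate 1. With the block all 38 rises remained and 5 more genes rose (Eif2ak2, Ifitm10, Ifitm3, Nmi and Parp9). It also turned the neighbour Vat1 into a rise. Median-of-ratios scaling moved the median of all Neuro2a genes from 0.06 to 0.00. In nuclei 0 of the tested Ifit, Ifi and pathway genes passed under each of the 12 alternatives of each comparison, with or without the replicate block. There the sign of Ifit1 against Het and against WT rests on replicate 1 of Het CRISPRa. Values at or below 3 reads (Ifi44 and Ifi27l2a in nuclei) are limited by depth.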

Other observations

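Replicate 1 of Het CRISPRa, which had the highest Ifit1 level in nuclei, was also the highest of the 9 mouse libraries for 7 of 16 tested antiviral effectors and 12 of 46 tested pathway genes. Over all 18967 tested genes it was the highest library for 6.83%. This count was added after the values were seen. Mx2 was at 5.69 CPM there and between 0.60 and 1.84 CPM in the other 8 libraries, and Oas2 was at 4.14 CPM there and between 0.06 and 0.75 CPM elsewhere. Oas1b was at 4.19 CPM there, and 1.17 CPM in replicate 3 of Het CRISPRa was the next highest value. The microglial markers summed to 17.4 CPM in that library, within the 10.49 to 23.5 CPM of all nuclei. Among them C1qb was highest there, at 3.045 CPM against 0.48 to 1.84 CPM in the other 8 libraries, and no other marker of the list was. The sadCas9-VP64 level of 7.12 CPM in that library was the highest of the 3 Het CRISPRa libraries. Whether these values are linked was not tested.

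Values of Ifit3 and Ifit3b were a whole number of reads, within 0.01, in 1 of 9 mouse libraries, whereas those of Ifit1, Ifit2, Ifi27 and Ifi35 were in all 9.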
